A study of Drosophila melanogaster with 107 samples.

Results

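Among the 7191 gene rows of the developmental table whose symbol is CG plus digits, 31 reached a far higher level in adult γ neurons than at any earlier stage of the same cells. A CG number is the identifier that the Drosophila annotation gives to a predicted gene and that serves as its symbol until the gene is named. A row was taken when its mean over the adult γ libraries was at least 50 normalized reads and when that mean plus 1 was at least 3 times the highest mean of the 13 other γ stages plus 1. Of the CG-numbered rows, 1021 had an adult γ mean of at least 50. A further 53 rows with other symbols met the same numbers, among 17050 gene rows in all. The members were thus chosen by their values in the 52 γ libraries of the developmental table, and their levels along the γ stages are given below as a description. The other adult cell types and the perturbed animals played no role in the choice.

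The series profiled polyadenylated transcripts from sorted brain cells of Drosophila with MARS-seq, which sequences transcript 3' ends, here from 1000 cells marked with a red fluorescent nuclear reporter (RedStinger) per library. Flies were kept at 25 °C, both sexes were taken at random, and adults were 3 to 5 days old. One table followed development in 64 libraries and the other held 43 libraries of perturbed and control γ neurons. Adult γ neurons and the 13 earlier γ stages were marked with the driver 71G10 in animals of the strain y,w/+; UAS-RedStinger/+;71G10/+. The stages were the second instar (L2), the third instar (L3) and every 3 h from 0 to 30 h after puparium formation, with 3 or 4 libraries each. Adult astrocyte-like cells carried UAS-RedStinger over the balancer cyo with alrm-Gal4, and in addition UAS-CD8:GFP and UAS-Dcr2. For αβ neurons the driver was NP3061-GAL4, and for neurons outside the mushroom body (non-MB) it was C155-GAL4, with the blocker MB247-GAL80 in mushroom body cells. Each adult cell type had 4 libraries. The perturbed γ neurons came from animals labelled EcR-DN (a dominant-negative form of the ecdysone receptor), E75 RNAi and Sox14 RNAi, for which the labels give no further genotype, and the controls had the strain of the developmental γ series. Each of these 4 genotypes was sampled at L3, 0 h, 6 h and 12 h, in 2 or 3 libraries each time.

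γ neurons are the first-born neurons of the mushroom body, the olfactory learning center of the fly brain. Their larval axon branches are pruned early in pupal life under the control of the steroid hormone ecdysone and then grow again into the adult lobe. The ecdysone receptor EcR, the nuclear receptor E75 (gene Eip75B) and the transcription factor Sox14 act in the hormone response. αβ neurons are born later and are not remodeled in this way.

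All levels are reads as normalized and rounded by the authors, and they sum to 1343651 to 2068007 per library in the developmental table and to 1896123 to 2501051 in the perturbation table. Differences come from limma as log2 fold changes of value + 1, which understates changes at low levels, and stand with their standard error. A gene is said to rise or fall, or to be called higher or lower, at a Benjamini-Hochberg adjusted p under 0.05 over all genes tested. Nothing in the labels says that replicates came from separate animals, so p-values measure only the spread between these libraries. In such bulk samples fewer cells of a type and less RNA per cell cannot be told apart. Of 4 listed genes meant to set γ against αβ neurons, ab (1107 against 32.5 reads) and trio (867 against 225) had a higher mean in adult γ than in adult αβ libraries, Fas2 (1377 against 1361) was about level and Eip93F (2320 against 9898.5) was lower, and ab was highest in astrocyte-like cells (2372). The list as a whole thus did not set adult γ above adult αβ libraries. The astrocyte gene alrm had 17 reads in adult γ libraries, against 4194 in astrocyte-like libraries. The 6 listed neuron markers together had 23341 to 26080 reads in adult γ libraries and 4101 to 13171 in the other γ libraries, so their sum was also higher in the adult. The part of that in the levels below was not tested.

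In the libraries labelled Sox14 RNAi, Sox14 averaged 1095 reads, against 6921 in control libraries, at L3, 1018, against 7445, at 0 h, 577, against 487, at 6 h and 307, against 322, at 12 h. The targeted transcript was thus far below control at L3 and 0 h and near control at 6 and 12 h, where control itself was low. In those labelled E75 RNAi, Eip75B averaged 18818 reads, against 29970 in control, at L3, 28752, against 30265, at 0 h, 17467, against 7401, at 6 h and 10210, against 9306, at 12 h, so the targeted transcript was not lower at each stage. The EcR-DN libraries had 1214 reads of EcR, against 4743 in control, at L3, 3272, against 2688, at 0 h, 2477, against 328, at 6 h and 1155, against 819, at 12 h, and 3' reads do not separate a transgene from the native gene. Of the Sox14 RNAi libraries, replicate 1 labelled L3 correlated better with replicates 2 and 3 of 0 h (mean Pearson r 0.909) than with those of L3 (0.899). Replicate 1 labelled 0 h was likewise closer to L3 (0.913) than to 0 h (0.887). The labels of these 2 libraries were kept, and the Sox14 results were also computed without them.

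All 31 rows matched a protein-coding gene in the RefSeq annotation of assembly Release 6. There, 10 of them now bear another symbol. CG14509 is jus, named for seizures that follow mechanical shock in its mutants. CG10186 is Hasp, a scaffold protein of the synaptic cleft, and CG11566 is stg1, a relative of the vertebrate stargazin that accompanies glutamate receptors. CG5549 is GlyT, a glycine transporter of the plasma membrane, CG8177 is the anion exchanger Ae2, and CG30118 is Ttd14, which acts in the trafficking of the TRP channel in photoreceptors. CG8216 is spab and CG43778 is hbt. CG45093 and CG30497 are merged in CG46385 and held identical values in every library of both tables, so the members stand for 30 distinct genes. CG11566 likewise duplicated the row named stg1, which is thus among the 53 rows with other symbols. The members were scattered over the genome: the closest pair, spab and CG13743, had 8 protein-coding genes between them. Exons of 11 members overlap another gene, in 2 cases on the same strand (CG6044 with VepD and CG13743 with CG8197), and the use of strand in the authors' counting was not given in the sources used here. Among these overlaps, CG15772 (113.5 adult γ reads) with lin-52 (73.5) and CG3009 (89) with Cbp80 (45.5) had the most similar levels, so the values of these 2 members are uncertain.

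The adult levels of the members spanned from 3074 to 55 reads. CG14509 was the highest, with 3107, 3108, 3193 and 2889 reads in the 4 adult γ libraries. It had had 271 reads at L3, 172 at 0 h and 5.25 at 9 h, and was back at 122 at 30 h. The transcript was therefore present in larval γ neurons, at its lowest at 9 h and far above both in the adult. In larval γ neurons CG45093 and CG30497 were present too, with a mean of 589 at L3, and they had 2326, 1702, 2771 and 2775 adult reads. Their pupal means were uneven, at 59.7 at 3 h, 213 at 21 h, 49.8 at 24 h (the lowest) and 96 at 30 h. CG42540 had 2089, 1754, 2316 and 2041 adult reads and a mean of 166 at 0 h, 6.33 at 21 h and 42.8 at 30 h. All adult libraries of these genes lay above every earlier one.

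**Figure D1:**
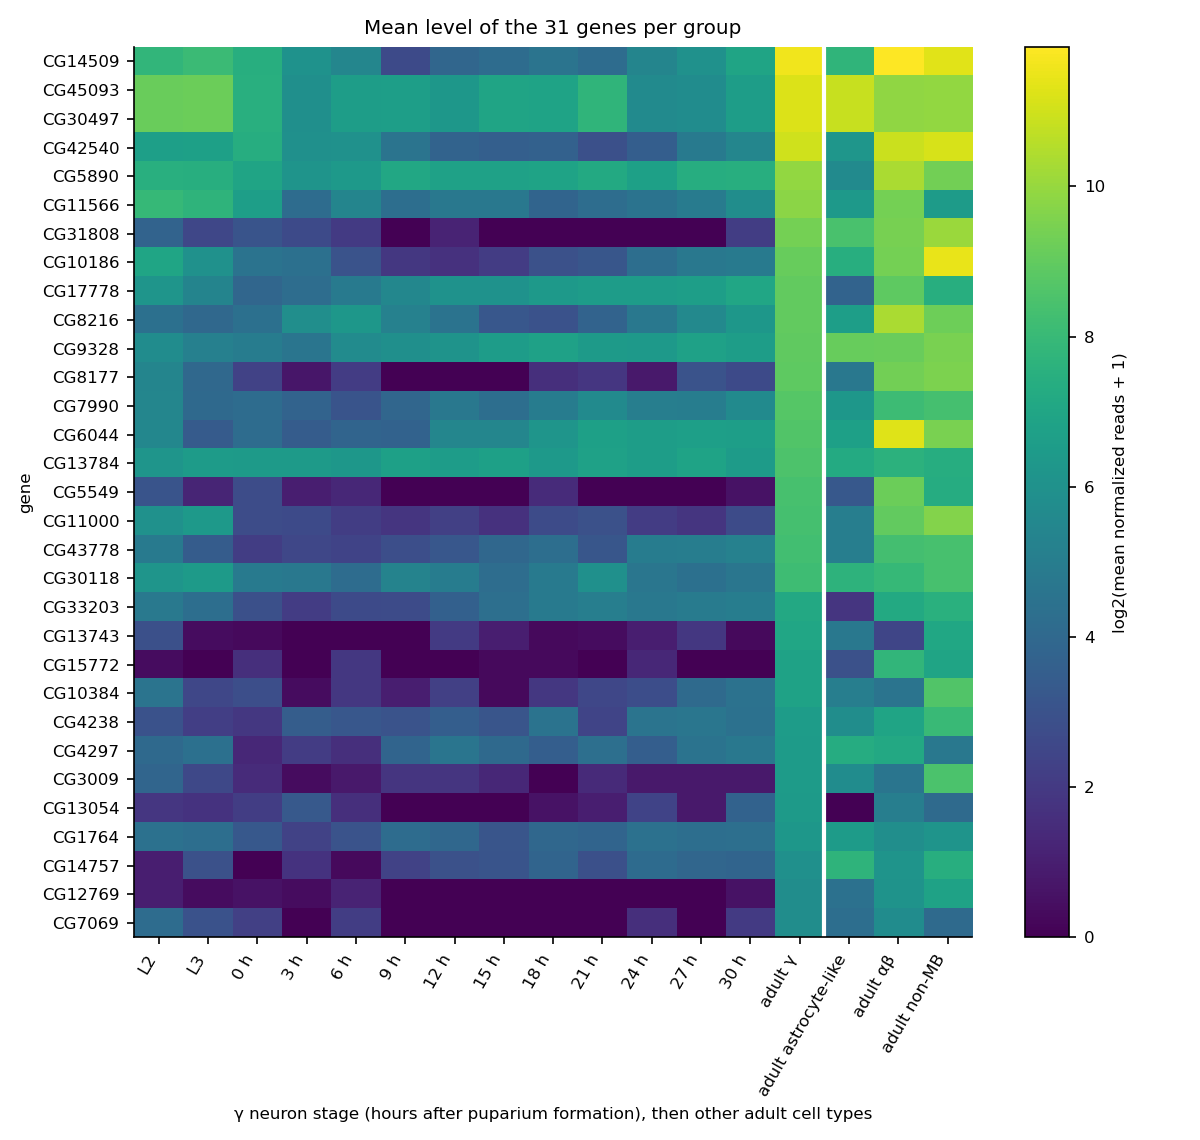
Mean level of each of the 31 genes (rows, ordered by adult γ mean) as log2(mean normalized reads + 1) at the 14 γ neuron stages from left to right, and to the right of the white line in the adult astrocyte-like, αβ and non-MB groups. Adult γ neurons stand out from every earlier γ stage, and most genes are also at high levels in adult αβ and non-MB neurons, while 21 have their lowest adult mean in astrocyte-like cells.

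Such a larval share was common. The highest stage other than the adult was larval for 15 members (L2 for 10 and L3 for 5), lay at 21 to 30 h for 13 and at 0 to 18 h for the other 3. CG11566, with 884, 913, 870 and 870 adult reads, had 242 at L2, 13 at 18 h and 55.8 at 30 h. CG10186, with 473, 671, 508 and 541 adult reads, had 124 at L2, 2.25 at 12 h and 28.5 at 30 h. Both thus had a trough between larva and adult. CG11000 (223, 416, 289 and 382 adult reads) had 83.7 at L3 and at most 6.67 at any mean from 0 to 30 h. CG8177, the anion exchanger, had 453, 510, 548 and 412 adult reads and means of 41 at L2 and 5.25 at 30 h.

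Some members had higher levels in the course of the pupal stages. CG17778 had 14.2 reads at 0 h, 64.2 at 12 h, 94.2 at 24 h and 127 at 30 h, ahead of 500, 494, 538 and 543 in the adult libraries. CG6044 had 9.67 at L3, 42 at 12 h and 98 at 30 h, ahead of 363, 471, 429 and 305 adult reads. By contrast, CG5890 and CG13784 stayed within 68.3 to 180 and 72 to 118 at the 13 earlier stages. Their adult libraries, at 932 to 1046 and 305 to 479 reads, were nevertheless all higher.

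In 4 members the mean was under 10 at every earlier stage: CG5549, CG13743, CG15772 and CG12769. CG5549, the glycine transporter, had 322, 272, 331 and 430 adult reads and at most 7.33 at any earlier mean. CG31808 was similar, with 658, 693, 615 and 694 adult reads against a mean of 12.7 at L2 and 3.5 at 30 h. In each of these genes the adult libraries lay far above every earlier library.

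In 30 of the 31 members all 4 adult libraries lay above all 48 other γ libraries. The exception was CG7069, the member with the lowest adult mean, whose lowest adult library had 27 reads while 1 earlier library had 44. The adult mean was 3.42 to 226.5 times the mean at 30 h, the last pupal stage measured, with a median of 11.4 and at least 10 times for 16 members. No stage between 30 h and the adult was profiled, so when each gene rose was not measured. Just inside the fold threshold stood CG7069 (3.05), CG13784 (3.10) and CG30118 (3.31), and just outside it CG43729 (2.96), CG15630 (2.93) and CG32486 (2.85). By adult mean, the lowest members were CG7069 (55), CG12769 (55.2) and CG14757 (60), and the nearest rows that met the fold and missed the mean were CG11099 (46.8), CG9394 (45) and CG14778 (40.2).

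Few of the 31 genes were high in adult γ neurons alone. The highest of the 4 adult means was in γ neurons for 8 members, in astrocyte-like cells for 3, in αβ neurons for 6 and in non-MB neurons for 14. The γ mean was within 3 times of the αβ mean for 27 members, of the non-MB mean for 24 and of both for 22. Against astrocyte-like cells that held for 12, and 21 members had their lowest adult mean there. These counts are descriptions, since the adult γ values chose the genes.

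All 4 γ libraries lay above all 4 αβ libraries for 7 members, where 5.42% of all tested genes did so, and below them for 6, where 6.19% did. Against non-MB neurons they lay above for 11 members (7.72% of all genes) and below for 10 (14.5%). Against astrocyte-like cells they lay above for 20 (16.3% of all genes) and below for 0 (14.8%). Above all 12 other adult libraries stood 2 members. The share of all genes that did so was not computed, so this count is only a description. CG13784 had 362, 305, 327 and 479 reads in γ neurons, 214, 121, 72 and 195 in astrocyte-like cells, 268, 300, 167 and 53 in αβ neurons and 182, 192, 182 and 112 in non-MB neurons. CG13054 had 106, 60, 64 and 122 reads in γ neurons, was listed at 0 in each astrocyte-like library, and had 44, 36, 41 and 9 in αβ and 21, 0, 35 and 9 in non-MB neurons. For both the gap to the nearest αβ library was small beside the spread of the γ libraries.

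αβ neurons are the closest relatives of γ neurons in this set, and αβ and non-MB neurons took no part in the choice of the genes, so the 2 were compared by test. In αβ neurons 5 members were higher and 4 lower than in non-MB neurons, beside 4.9% and 10.2% of all 8320 genes tested. With only these 2 groups in the fit the counts were 9 and 8, to which these shares of the main fit do not apply. The median log2 fold change of the members was -0.22, and -0.14 over all genes.

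The 5 genes higher in αβ neurons were CG11566, CG4297, CG6044, CG17778 and CG5890. CG11566 (stg1) had 597, 504, 530 and 1016 reads in αβ and 110, 57, 68 and 127 in non-MB neurons (log2 fold change 2.87 ± 0.55, adjusted p = 6.6e-05). CG17778 had 594, 442, 471 and 433 in αβ and 152, 137, 192 and 209 in non-MB neurons (1.49 ± 0.44, adjusted p = 0.011). In both genes the αβ libraries did not overlap the non-MB libraries, and the γ libraries, at 870 to 913 and 494 to 543, were on the αβ side. CG4297 had 159, 115, 133 and 150 reads in αβ and 34, 34, 14 and 21 in non-MB neurons (2.46 ± 0.61), and 67 to 106 in γ neurons. These 3 genes were therefore higher in both mushroom body types than in non-MB neurons. The highest adult mean of CG4297 was nevertheless in astrocyte-like cells (159.5, against 139 in αβ and 90.5 in γ neurons). CG5549 (GlyT) showed the order of CG4297 among the neuron groups and did not pass the test. It had 666, 608, 479 and 549 reads in αβ, 193, 134, 147 and 161 in non-MB and 272 to 430 in γ neurons.

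CG6044 had far more reads in αβ neurons than in the other adult types. Its αβ libraries had 2597, 2528, 2552 and 2364 reads, against 693, 808, 723 and 649 in non-MB neurons (1.81 ± 0.47, adjusted p = 0.0038). Adult γ neurons, at 305 to 471, were below both, although CG6044 had been chosen for its gain in γ neurons. CG5890 had 1367, 1501, 1411 and 917 in αβ and 646, 585, 663 and 713 in non-MB neurons (0.97 ± 0.35, adjusted p = 0.048). That call was lost in 10 of 15 alternative settings tried, and that of CG10186, below, in 9.

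The 4 lower genes were CG13743, CG10384, CG3009 and CG10186. CG13743 had 0, 6, 9 and 3 reads in αβ and 139, 138, 119 and 126 in non-MB neurons (-5.00 ± 0.78, adjusted p = 1.2e-06), while γ neurons, at 108 to 163, were at the non-MB level. CG10384 had 14, 7, 48 and 21 in αβ and 316, 456, 406 and 401 in non-MB neurons (-4.37 ± 1.02), with 90 to 140 in γ neurons. CG3009 had 28, 27, 9 and 29 in αβ and 320, 390, 367 and 384 in non-MB neurons (-4.04 ± 0.70), with 54 to 140 in γ neurons. So for these 3 genes both the γ and the non-MB libraries lay above every αβ library. CG10186 (Hasp) differed in kind: it had 596, 430, 963 and 698 reads in αβ and 2516, 2401, 3085 and 3392 in non-MB neurons (-2.13 ± 0.76, adjusted p = 0.045), and γ neurons, at 473 to 671, overlapped with αβ neurons.

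**Figure D2:**
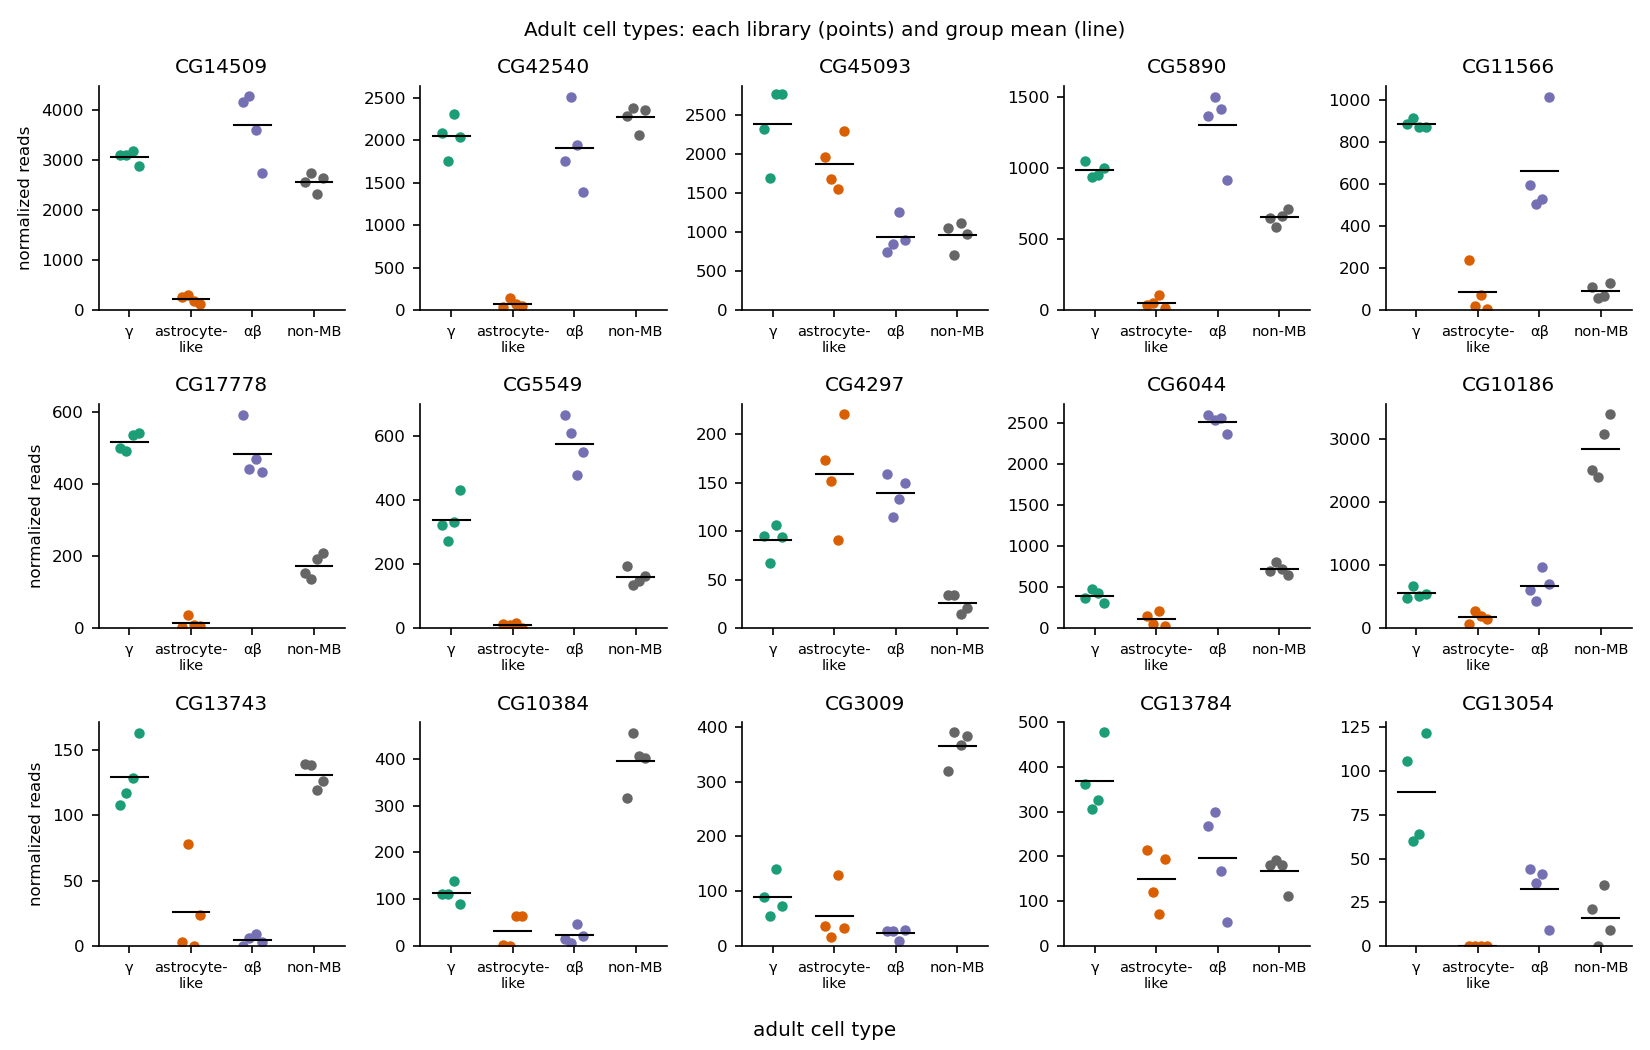
Normalized reads (vertical axes from 0, a separate scale per gene) in each library (points) of adult γ, astrocyte-like, αβ and non-MB cells, with the group mean as a line, for 15 of the 31 genes. CG11566 and CG17778 are high in γ and αβ neurons, CG6044 stands out in αβ neurons at 2364 to 2597 reads, and CG13743, CG10384 and CG3009 are near the bottom in αβ neurons.

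Astrocyte-like cells, a glial type, were set against the mean of αβ and non-MB neurons. Here 19 members were lower and 3 higher, beside 36.7% and 21.9% of all genes, and the member median of -2.98 compares with -0.48 over all genes. The members had been chosen for their level in an adult neuron type, and 22 had a γ mean within 3 times of both other neuron means. All genes were not chosen in this way, so the shares are not like for like. The part of the choice in the difference was not tested. CG33203 had 8, 0, 0 and 2 reads in astrocyte-like cells, 125, 183, 162 and 110 in αβ and 186, 186, 180 and 176 in non-MB neurons (-6.15 ± 0.59, adjusted p = 9.0e-14). CG8177 (Ae2) had 69, 0, 8 and 28 in astrocyte-like cells, against 424 to 753 in αβ and 657 to 788 in non-MB neurons (-5.85 ± 0.71). CG5549 (GlyT) had 11, 9, 15 and 0 in astrocyte-like cells, against 479 to 666 in αβ and 134 to 193 in non-MB neurons (-5.51 ± 0.62). In none of the 3 genes did an astrocyte-like library reach the level of any neuron library of these groups.

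CG17778 (-4.93 ± 0.38), CG42540 (-4.92 ± 0.56) and CG11000 (-4.60 ± 0.76) completed the 6 strongest decreases. CG42540 had 40, 139, 69 and 52 reads in astrocyte-like cells, against 1395 to 2517 in αβ and 2061 to 2382 in non-MB neurons. CG14509 (jus), at 262, 307, 171 and 130 in astrocyte-like cells, was also lower (-3.89 ± 0.34), without being near 0.

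The 3 rows that were higher in astrocyte-like cells stand for 2 genes. CG45093 and CG30497 had 1970, 1684, 1558 and 2299 reads in astrocyte-like cells, against 751 to 1263 in αβ and 708 to 1122 in non-MB neurons (0.98 ± 0.36, adjusted p = 0.015). CG4297 had 174, 152, 91 and 221, against 115 to 159 in αβ and 14 to 34 in non-MB neurons (1.37 ± 0.53, adjusted p = 0.023). Only for CG45093 and CG30497 did the astrocyte-like libraries stand clear of both neuron groups. For CG4297 the astrocyte-like and αβ libraries overlapped. Without astrocyte-like replicate 4, 0 of these 3 rows were called.

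The perturbation table set γ neurons with a disturbed hormone response beside controls. All 31 members entered the test among 8656 genes. However, 21 had at least 10 reads in at least 2 control libraries. The other 10, CG31808, CG8177, CG5549, CG13743, CG15772, CG10384, CG3009, CG13054, CG14757 and CG12769, entered through perturbed libraries and could hardly be called other than higher. Counts for the 21 are therefore also given. The other 10 are included in the counts over all 31 where they were called. Their calls and values against control are a description and no support. The rule had required low values in unperturbed pupal γ neurons, so the room for a decrease in pupae was small for all members. All genes were not chosen in this way, so the shares of members, also of the 21, and of all genes are not like for like. The part of the choice in the differences was not tested.

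With EcR-DN, 18 members were higher and 0 lower than control over the mean of 0, 6 and 12 h, where 10.6% and 5.87% of all genes were called. Counting CG45093 and CG30497 once leaves 17 of 30. Of the 21 members detected in controls 14 were higher, beside 11.4% of genes detected in the same way. The median over the members was 1.76 and over all genes 0.07. At an unadjusted p under 0.05 the counts were 21 and 0, beside 530 and 332 of the 3513 CG-numbered rows tested. Without EcR-DN replicate 1 of 0 h CG9328 was called lower. The 53 other symbols that met the same numbers, among them the duplicate row stg1, gave 33 higher and 0 lower. The same rule chose these rows and they were not split by detection in controls, so their counts are a description and no support.

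The largest differences were in CG11000, CG43778, CG8177 and CG3009, the last 2 of which entered through perturbed libraries. CG11000 had 247, 343 and 256 reads at 0 h, 97, 219 and 221 at 6 h and 276 and 234 at 12 h with EcR-DN, against 2, 32 and 8, then 2 and 14, then 2, 5 and 0 in control (5.37 ± 0.51, adjusted p = 4.5e-11). CG43778 (hbt) had 79, 157 and 115, then 75, 64 and 28, then 75 and 104 with EcR-DN, against 0, 0 and 2, then 0 and 2, then 1, 0 and 21 in control (5.29 ± 0.73). CG8177 (Ae2) had 82, 86 and 164, then 87, 9 and 33, then 37 and 39 with EcR-DN, against 0 to 4 in every pupal control library. The EcR-DN libraries of these 3 genes lay above all control libraries of their stage.

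CG3009 had 58, 105 and 93, then 72, 35 and 53, then 42 and 18 reads with EcR-DN, against 0 to 15 in pupal control libraries. CG10186 (Hasp) had 202, 294 and 232, then 111, 218 and 219, then 173 and 166 with EcR-DN, against 50, 113 and 132, then 22 and 4, then 4, 20 and 10 in control (3.15 ± 0.30, adjusted p = 7.4e-11). CG45093 and CG30497 had 789, 1319 and 680, then 223, 654 and 502, then 1145 and 269 with EcR-DN, against 105, 146 and 113, then 37 and 175, then 86, 25 and 94 in control (2.82 ± 0.34). In these genes too the groups did not overlap at any pupal stage. CG30118 (Ttd14, 3.14 ± 0.40), CG14509 (jus, 2.40 ± 0.30) and CG11566 (stg1, 2.02 ± 0.28) were among the rest.

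CG14509 (jus) had 590, 627 and 606 reads at 0 h, 314, 371 and 170 at 6 h and 445 and 325 at 12 h with EcR-DN, after 508, 500 and 606 at L3, against 332 and 247 at L3 in control. Its EcR-DN libraries of 0 h thus lay in the upper part of their L3 range or above it, and those of 6 and 12 h below it. CG5549, which no control library held at 10 reads, had no more than 29 in any pupal EcR-DN library. Some members were not called with EcR-DN: CG42540 had 89, 152 and 139 reads at 0 h, against 188, 109 and 127 in control, and the pupal values of CG31808 were 0 to 20, against 0 to 6.

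By stage, EcR-DN gave 18 higher members at 0 h, 10 at 6 h and 9 at 12 h, beside 10.4%, 4.86% and 4.01% of all genes. Of the 21 detected in controls these were 13, 8 and 8, beside 10.9%, 5.53% and 4.35% of such genes. It gave 0 lower at each, beside 6.41%, 1.99% and 0.809%. At an unadjusted p under 0.05, 1, 0 and 0 were lower, beside 305, 275 and 120 of the 3513 CG-numbered rows tested. At all 3 stages 8 rows were higher, namely CG14509, CG45093, CG30497, CG30118, CG10186, CG8177 (not one of the 21), CG11000 and CG43778. At L3, before pupation, 6 were higher and 0 lower (3.84% and 4.4% of all genes). Of the 21 detected in controls 4 were higher, beside 3.73% of such genes. At an unadjusted p under 0.05 the counts over all members were 12 and 0, beside 292 and 263 of the 3513 CG-numbered rows tested. The 6 were CG8177 (112, 65 and 144 reads, against 2 and 1 in control), CG3009 (248, 186 and 240, against 7 and 5), CG43778 (125, 129 and 89, against 11 and 1; 4.54 ± 1.32), CG11000 (337, 433 and 413, against 79 and 17; 3.37 ± 0.91), CG17778 and CG30118. With 2 control libraries the L3 count of 6 was fragile. Without control replicate 3 it was 1, and without EcR-DN replicate 1 or 2 it was 3. A fit of these 2 groups alone gave 11, to which the shares given here, those of the main fit, do not apply.

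The summed level of 6 neuron markers differed between these groups. It was 13617 to 24757 in pupal EcR-DN libraries, 9911 to 18912 in E75 RNAi, 7330 to 10511 in Sox14 RNAi and 6098 to 8966 in control. At L3 it was 18537 to 19036 with EcR-DN, 15189 to 20007 with E75 RNAi, 6526 to 11710 with Sox14 RNAi and 10523 to 12558 in control. With EcR-DN, 6 of the 6 markers had a higher mean than control at L3, 0 h and 6 h, and 5 at 12 h. With E75 RNAi these counts were 5, 3, 5 and 4 at L3, 0, 6 and 12 h, and the sodium channel gene para, at 6291 reads against 357 in control at 6 h, made up a large share of the sum. The synaptotagmin gene Syt1, at 638 against 694, was slightly lower there. With Sox14 RNAi the counts were 1, 5, 5 and 4.

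Other lists differed as well. The sum of 12 heat shock and dissociation genes was 10506 reads with EcR-DN, 13543 with E75 RNAi, 27079 with Sox14 RNAi and 22252 in control at 6 h. At 12 h it was 10815, 13353, 22114 and 15827 in the same groups. At L3 it was 11304, 7365, 12182 and 9386.5, and at 0 h 10412, 10018, 12614 and 10260. The sum of 6 tracheal and cuticle genes at 6 h was 811 with EcR-DN, 1477 with E75 RNAi, 158 with Sox14 RNAi and 2737 in control. The sum of 12 Kenyon cell genes was 48781 with EcR-DN, 67589 with E75 RNAi, 92007 with Sox14 RNAi and 105016 in control at L3, and 66559, 78603, 99438 and 127592 at 0 h. The gene mamo made up a large share of these sums, at 50306 reads in control at L3 and 87154 at 0 h, against 2983 and 12994 with EcR-DN. At 6 h the Kenyon cell sum was 64118 with EcR-DN, 47489 with E75 RNAi, 60395 with Sox14 RNAi and 52039 in control. At 12 h it was 55573.5, 42850, 48271 and 53807 in the same groups. Of the 12 genes, 5 had a higher mean than control at L3 and 9 at 0 h with EcR-DN. These counts were 9 and 8 with E75 RNAi and 4 and 8 with Sox14 RNAi. The 4 genes of the γ and αβ list summed to 5740 to 7854 in pupal EcR-DN libraries, 1580 to 6958 in E75 RNAi, 1551 to 5642 in Sox14 RNAi and 6351 to 8289 in control. The nuclear receptor gene Hr38, which neuronal activity induces, averaged 3656, 2573, 513 and 1931 reads at L3, 0, 6 and 12 h with EcR-DN and 1362, 6.5, 4.67 and 89 with E75 RNAi. It averaged 52.3, 117, 17 and 7 with Sox14 RNAi and 84, 8, 30.5 and 37.7 in control. The part of these genes in the members' changes was not tested.

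**Figure D3:**
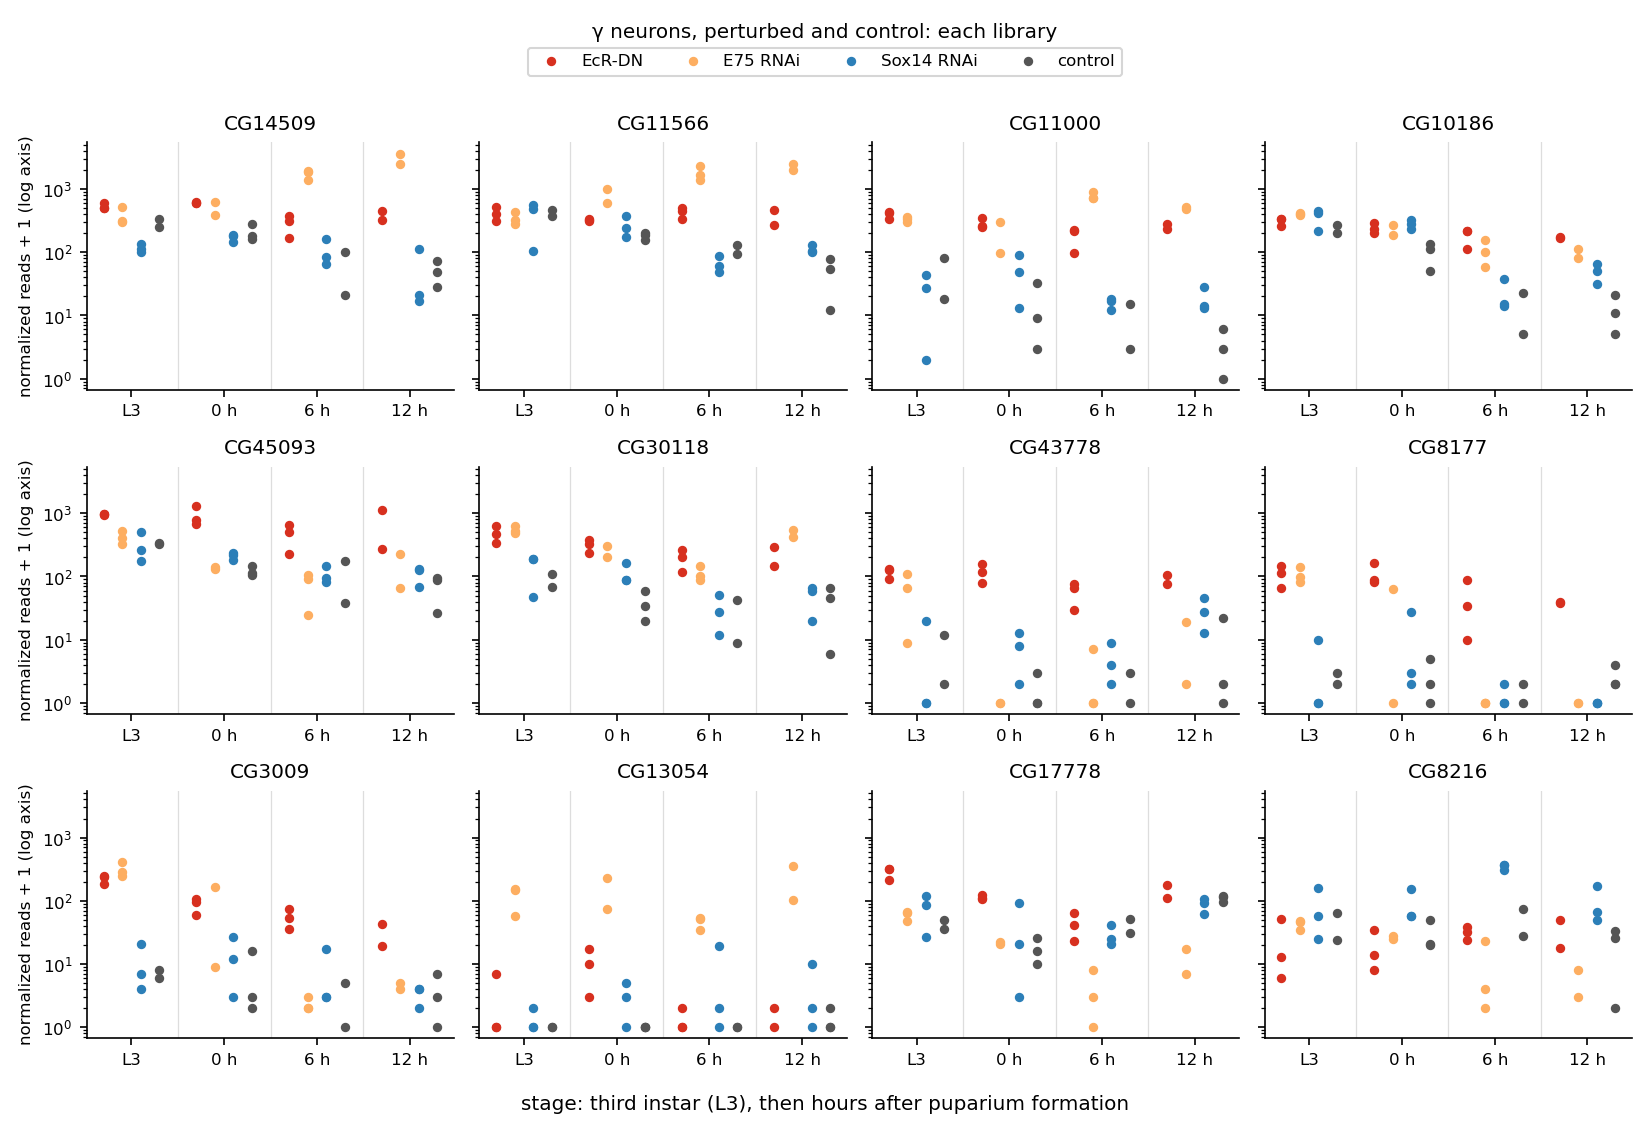
Normalized reads plus 1 (log axis, shared by all panels) in each library of γ neurons with EcR-DN, E75 RNAi, Sox14 RNAi and control, side by side within each stage, for 12 of the 31 genes. CG14509 and CG11566 stand highest with E75 RNAi at 6 and 12 h, CG43778 and CG8177 are above control with EcR-DN at every stage, CG13054 is high with E75 RNAi at every stage, and CG8216 is highest with Sox14 RNAi at 6 h.

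With E75 RNAi, 9 members were higher and 1 lower over the pupal mean, where 7.01% and 5.58% of all genes were called. Of the 21 detected in controls 5 were higher (7.3% of such genes) and 1 lower (6.48%). The member median was 1.01, and -0.10 over all genes. The 53 other symbols, stg1 among them and not split by detection in controls, gave 20 higher and 2 lower, again as a description. The same control libraries served all 3 perturbations.

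CG14509 (jus) and CG11566 (stg1) climbed together with E75 RNAi. CG14509 had 527, 296 and 312 reads at L3, 627 and 393 at 0 h, 1372, 1917 and 1881 at 6 h and 3648 and 2505 at 12 h, against 332 and 247, then 181, 162 and 281, then 20 and 99, then 27, 73 and 47 in control. The E75 RNAi libraries thus climbed through the pupal stages in which control libraries fell away (pupal mean 4.18 ± 0.31, adjusted p = 4.2e-14). At 12 h the difference was 6.03 ± 0.53. CG11566 (stg1) moved likewise, with 279, 324 and 426 at L3, 999 and 600 at 0 h, 1639, 2308 and 1406 at 6 h and 1975 and 2482 at 12 h, against 373 and 468, then 184, 154 and 203, then 127 and 94, then 53, 11 and 77 in control (pupal mean 4.0 ± 0.29). At L3 the E75 RNAi libraries of both genes overlapped with control, and those of 12 h included the highest of the perturbation table.

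CG11000 had 95 and 298 reads at 0 h, 729, 710 and 898 at 6 h and 510 and 480 at 12 h with E75 RNAi (6.18 ± 0.53, adjusted p = 3.0e-12), against 0 to 32 in pupal control. CG13054 had 154, 148 and 57 at L3, 74 and 227 at 0 h, 53, 33 and 50 at 6 h and 101 and 360 at 12 h. In control it was listed at 0 in 9 libraries and had 1 read in the other, so it entered the test through perturbed libraries. CG30118 (3.18 ± 0.41) and CG10186 (2.56 ± 0.31) also rose, and CG12769, CG10384 and CG5549, outside the 21, made up the 9.

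CG17778 was the member that fell. It had 21 and 20 reads at 0 h, 7, 2 and 0 at 6 h and 6 and 16 at 12 h with E75 RNAi, against 25, 9 and 15, then 51 and 30, then 114, 94 and 116 in control (-2.23 ± 0.49, adjusted p = 8.4e-04). The groups overlapped at 0 h and were apart at 6 and 12 h. In the developmental table its γ means climbed over these stages. Without control replicate 2 of 12 h or E75 RNAi replicate 2 of 6 h, 2 members were lower.

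At L3, 6 members were higher and 0 lower with E75 RNAi, beside 1.56% and 1.64% of all genes. At an unadjusted p under 0.05, 10 were higher and 0 lower, beside 195 and 205 of the 3513 CG-numbered rows tested. Only 2 of the 6, CG11000 and CG30118, were among the 21 detected in controls, beside 1.47% of such genes. The other 4 had entered through perturbed libraries. CG13054 had the values above, against 0 and 0 in control. CG3009 had 283, 244 and 408 reads, against 7 and 5, CG8177 had 142, 81 and 98, against 2 and 1, and CG5549 had 90, 46 and 128, against 0 and 9. At 6 and 12 h every E75 RNAi library had 0 to 4 reads of each of the last 3 genes. Without control replicate 3 the count was 3.

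EcR-DN and E75 RNAi were also compared directly over the pupal mean, a comparison that does not use the controls. Of the 31 members 9 were higher and 5 lower with EcR-DN than with E75 RNAi, beside 14.1% and 8.7% of all genes. Counting CG45093 and CG30497 once leaves 8 and 5 of 30. Of the 21 detected in controls 7 were higher and 4 lower, beside 15.5% and 9.56% of such genes. CG43778 averaged 87.4 reads with EcR-DN and 3.83 with E75 RNAi (5.15 ± 0.76), and CG45093 and CG30497 averaged 699 and 118 (2.56 ± 0.35). CG17778 averaged 98.9 with EcR-DN and 11.5 with E75 RNAi (3.28 ± 0.49). In the other direction CG11566 averaged 373 with EcR-DN and 1604 with E75 RNAi (-1.98 ± 0.29), and CG14509 averaged 426 and 1769.9 (-1.78 ± 0.31). Outside the 21, CG8177 averaged 63.9 with EcR-DN and 10.3 with E75 RNAi, and CG13054 averaged 3.28 and 142. The called members thus differed in which perturbation gave the higher level, and the rest of the members were not called. CG30118 and CG10186 did not pass this test, with 243 and 198 reads with EcR-DN and 282 and 142 with E75 RNAi.

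With Sox14 RNAi, 4 members were higher and 0 lower over the pupal mean, beside 5.27% and 6.34% of all genes. All 4 were among the 21 detected in controls, where 5.61% of genes were higher. The member median was 0.66, and 0.08 over all genes. At an unadjusted p under 0.05, 9 were higher and 0 lower, beside 403 and 383 of the 3513 CG-numbered rows tested. CG8216 (spab) averaged 89.3 reads at 0 h (56 and 57 in replicates 2 and 3, and more in replicate 1, whose label was in doubt) and had 372, 303 and 373 at 6 h and 66, 49 and 168 at 12 h, against 20, 19 and 49, then 27 and 73, then 25, 1 and 32 in control (2.42 ± 0.54, adjusted p = 0.0015). All Sox14 RNAi libraries lay above the control libraries of their stage, by most at 6 h. In the other perturbations CG8216 was not called, at 7 to 48 reads in pupal EcR-DN and 1 to 27 in pupal E75 RNAi libraries.

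CG10186 (Hasp) had 327, 233 and 282 reads at 0 h, 13, 14 and 37 at 6 h and 31, 63 and 50 at 12 h with Sox14 RNAi (1.56 ± 0.29, adjusted p = 1.7e-04), against the control values given above, and overlapped with control at 6 h. CG11000 had 90, 12 and 48, then 11, 17 and 16, then 12, 13 and 27 (1.97 ± 0.49), and CG7990, whose call was lost in 13 of 24 alternative settings, had 20, 18 and 43, then 21, 40 and 42, then 58, 43 and 53, against 0, 5 and 16, then 3 and 36, then 93, 9 and 5 in control (1.83 ± 0.58, adjusted p = 0.031). Without the 2 libraries that stand apart 5 members were higher, and these 4 were still called. The count was 7 without control replicate 3 of 6 h.

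At L3, Sox14 RNAi changed 0 members in limma, in either direction, beside 0.22% higher and 1.52% lower of all genes, and 0.202% and 1.77% of those detected in controls. At an unadjusted p under 0.05, 0 were higher and 2 lower, beside 131 and 233 of the 3513 CG-numbered rows tested. Without the library labelled L3 replicate 1 and the library labelled 0 h replicate 1, the count was also 0. The highest-level member, CG14509, had 110, 135 and 99 reads at L3, against 332 and 247 in control, a difference that did not pass the test.

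The size of each effect also differed between stages for some members. The effect at 12 h minus that at L3 was tested as an interaction in limma. With EcR-DN it was above 0 for 2 members, CG11566 (stg1) and CG10186 (Hasp), and below 0 for 0, beside 3.82% and 1.31% of all genes. CG11566 had 404, 524 and 309 reads at L3 and 270 and 464 at 12 h with EcR-DN, against 373 and 468 at L3 and 53, 11 and 77 at 12 h in control. With E75 RNAi it was above 0 for 2, CG14509 (jus) and CG11566, and below 0 for CG8177 (Ae2, not one of the 21), beside 1.76% and 0.635%. With Sox14 RNAi it differed from 0 for 0 members in either direction, beside 0.612% and 0.0924%. At an unadjusted p under 0.05 these were 5 and 1, beside 225 and 83 of the 3513 CG-numbered rows tested.

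**Figure D4:**
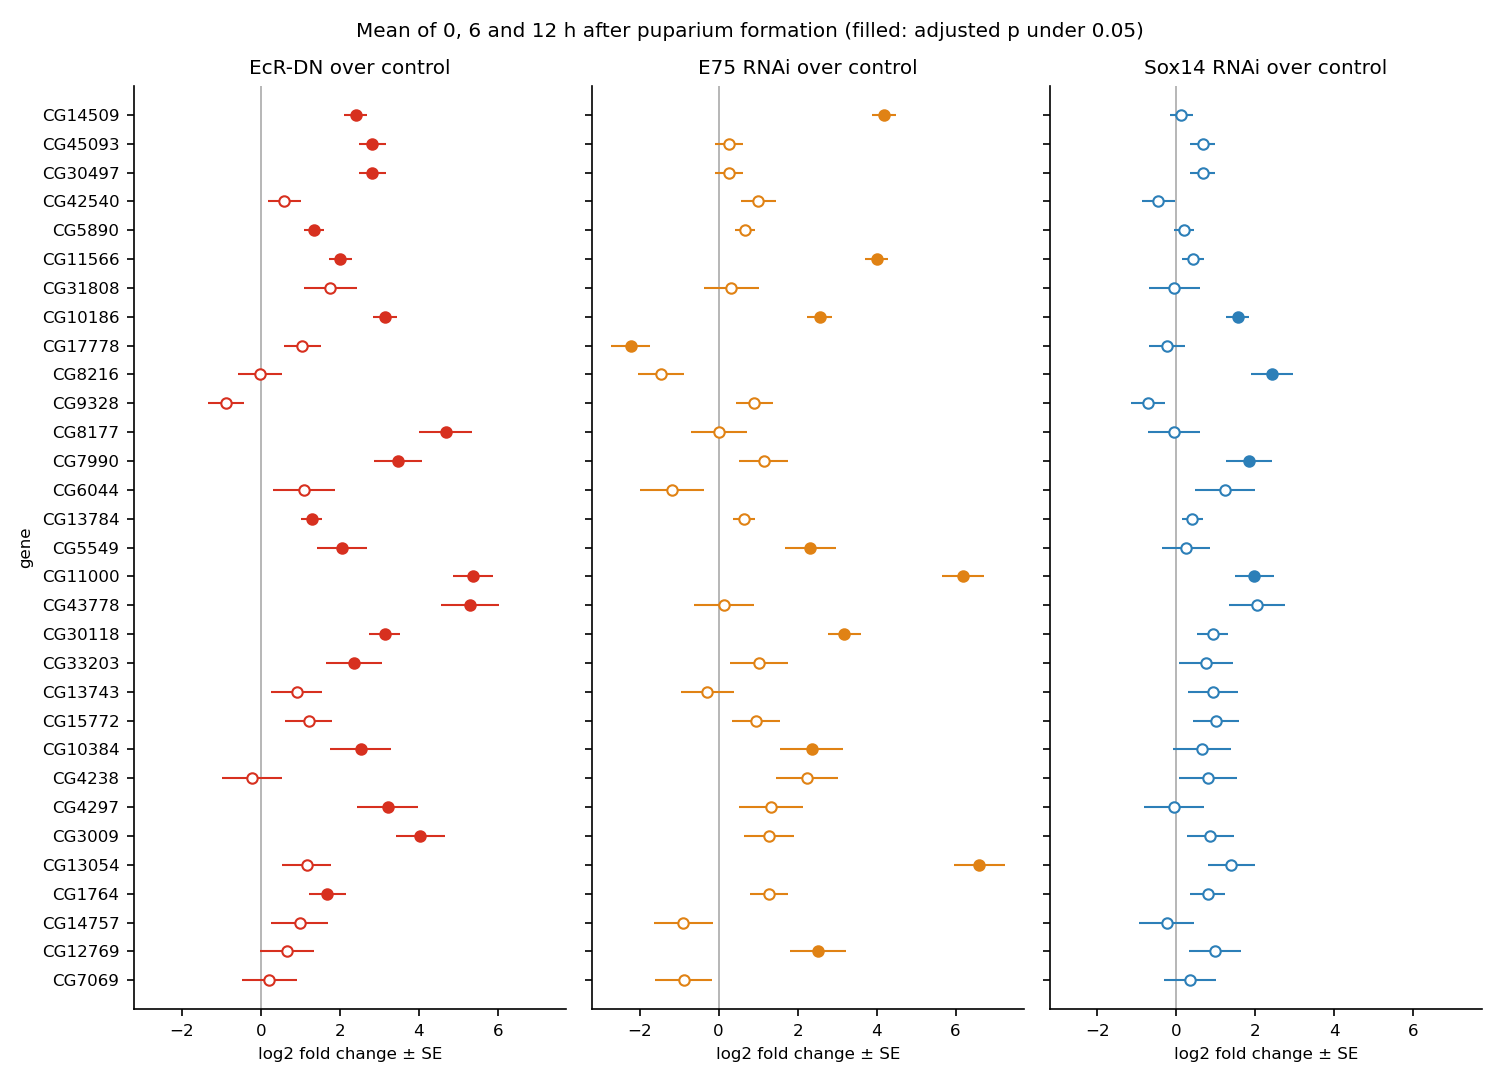
Log2 fold change over control with its standard error (bars) of each of the 31 genes over the mean of 0, 6 and 12 h, for EcR-DN, E75 RNAi and Sox14 RNAi. Filled points passed an adjusted p under 0.05. With EcR-DN 18 points are filled, all to the right of 0, with E75 RNAi 9 to the right and 1 (CG17778) to the left, and with Sox14 RNAi 4 to the right. Of the filled points to the right, 14, 5 and 4 belong to the 21 genes detected in controls.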

How the data were processed

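Brain cells sorted for the reporter were sequenced in bulk by MARS-seq, in 64 developmental and 43 perturbation libraries. The deposited values are scores, that is, reads per gene that the authors had normalized within a table and rounded. Tools listed in the submitters' processing notes, without roles, are HISAT 0.1.5, HOMER and bcl2fastq, and the genome build and normalization method are not given in the sources used here. The 2 tables were scaled separately, so tests stay within a table. Depth before normalization is unknown, and 5850 to 8542 genes per library had a read.

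Groups were taken from the labels. A gene entered the tests with 10 reads or more in 3 or more libraries of the developmental table (8320 genes) or 2 or more of the perturbation table (8656 genes), and was tested on log2(value + 1) with limma 3.58.1 in R 4.3.3, with a mean per group over all groups of a table, empirical Bayes with a trend, and Benjamini-Hochberg adjustment over all tested genes. P-values are two-sided. The pupal mean averages the group means of 0, 6 and 12 h. The procedure was tried on simulated data for the αβ against non-MB and the pupal EcR-DN comparisons. Changes were put there only into genes well above 0, so it does not cover members near 0 in control. Members, gene lists and tests were chosen with earlier results of these data known. Named with values were the 12 members highest in adult γ neurons, up to 6 called members per direction between adult cell types, and the 4 largest called changes per perturbation. Others (CG13784, CG13054, CG31808 and the like) were chosen after their values were seen. Alternatives were another pseudocount, no filter, robust variances, quantile normalization, fits of the compared groups with and without a replicate block, and leaving out each replicate. Comparisons by single pupal stage, between perturbations, between stages and without the 2 Sox14 RNAi libraries were added after seeing the data. Sequences of the genes were not used here.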

Additional observations from a re-analysis of the deposited data

Results flagged for a closer look

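In 4 of 88 groups of 4 adult libraries of the named members, a single library lay apart from the other 3 by more than Dixon's 95% critical value allows, which chance alone does in about 1 of 20 groups. CG7990 had 550 reads in adult γ replicate 2, against 377, 378 and 389 in the others. In non-MB replicate 2 the same gene had 260, against 337, 347 and 351. CG3009 had 9 reads in αβ replicate 3, against 27, 28 and 29. CG17778 had 35 reads in astrocyte-like replicate 2, against 3, 5 and 8. These values were kept.

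The effect of a perturbation at 12 h was also tested against its effect at L3, as an interaction in limma over all 8656 genes. With EcR-DN the effect at 12 h was larger for CG11566 (difference of log2 fold changes 3.32 ± 0.71, adjusted p = 0.0017) and for CG10186 (3.62 ± 0.77, adjusted p = 0.0015), beside 3.82% of all genes. With E75 RNAi it was larger for CG14509 (5.68 ± 0.75) and CG11566 (6.21 ± 0.71), beside 1.76% of all genes. For CG8177 it was smaller (-6.76 ± 1.72), beside 0.635%. E75 RNAi libraries had 142, 81 and 98 reads of it at L3 and were listed at 0 at 12 h. No control library held 10 reads, so the gene was tested only through perturbed libraries and its call is a description. The comparisons of a stage share control libraries.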

How the results depend on the processing

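The rule gave 93 members at 2 times and 14 at 5 times, and 23 to 39 with other limits on the mean, medians or quantile normalization. Leaving out an adult γ replicate gave 30 to 33, of which 29 to 31 were among the main 31. With a γ mean at least 3 times the other in place of libraries that do not overlap, 3 members were higher than in αβ and 4 than in non-MB neurons; without single γ replicates the counts were 7 to 7, 11 to 12 and, over astrocyte-like cells, 20 to 22.

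Same-numbered libraries did not deviate together in the pairs looked at. The r was -0.043 to 0.025 over 12 developmental pairs, all between adult αβ, non-MB and astrocyte-like groups. Over 27 perturbation pairs it was -0.047 to 0.062. The main fit therefore treated the numbers as names, and a batch that the labels do not state was not tested. With the replicate block and only the compared groups, 9 members were higher and 8 lower in αβ than in non-MB neurons, 12 higher with EcR-DN at L3, 2 lower with Sox14 RNAi at L3 and 2 higher with Sox14 RNAi over the pupal mean. Without the block, the compared groups alone gave 9, 8 and 11 for the first 3 of these. The cause was not tested. Shares over all genes in these fits are not given here, and those of the main fit do not apply to them. Other counts with the block, such as 17 higher over the pupal mean of EcR-DN, stayed within 1.5 times. Quantile normalization left 1 higher member in astrocyte-like cells.

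When single replicates were left out, αβ over non-MB gave 4 to 5 higher and 3 to 4 lower. Astrocyte-like cells gave 0 to 3 higher and 19 to 20 lower. EcR-DN gave 1 to 5 higher at L3 and 17 to 19 higher and 0 to 1 lower over the pupal mean, E75 RNAi 3 to 4 higher at L3 and 8 to 10 higher and 1 to 2 lower over the pupal mean, and Sox14 RNAi 3 to 7 higher over the pupal mean. No named log2 fold change was reversed in the settings tried, but of the 38 called values 12 lost their call in at least 1 setting.

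The number of reads behind the normalized values is unknown, and a member that did not pass a test is not shown to be unaffected.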
